A study of Homo sapiens with 66 samples.

Results

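The genes described here are 28 genes of cholesterol synthesis and sterol response, taken by Ensembl identifier from the gene count tables of 2 experiments in THP-1 cells that each list 57820 genes. They comprise 17 enzymes that build cholesterol, 4 genes of sterol sensing (SREBF1, SREBF2, SCAP and INSIG1), 3 genes of sterol movement inside the cell (STARD4, TMEM97 and NPC1) and 4 genes of sterol efflux and of the response to oxysterols (ABCA1, ABCG1, MYLIP and CH25H). The rule for this choice uses no measured value, but the members were chosen with earlier results of these data known. After genes with an average level below 0.5 on the log2 scale of depth-scaled counts (CPM) were removed, 26 of the 28 remained in the first experiment and 27 in the second. CH25H fell below that limit in both and ABCG1 in the first, so their levels there are given without a test.

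THP-1 cells come from a human monocytic leukemia and here carried a Cas9 transgene. They were nucleofected with 2 guide RNAs (gRNAs) per culture, after which RNA depleted of ribosomal RNA was sequenced. Study 1 used a STING-deficient clone, with 16 groups of 3 whole-cell libraries collected 3, 4 and 5 days after nucleofection. CTRL cells received the nontarget gRNA NC1 in both places, hnRNPC, ADAR and GFP cells received 1 gRNA of that name together with NC1, and cells with both the hnRNPC and the ADAR gRNA are called double. Another CTRL group was given IFN-α on day 3 and collected on day 4. Study 2 used a WT clone on day 4 only, other gRNAs against the same 2 genes, and 9 groups of 2 libraries from whole cells (total), from the part that digitonin releases (cytosolic) and, for hnRNPC cells alone, from the nuclear and mitochondrial remainder. Each study rests on 1 Cas9 clone and all groups, controls included, carry Cas9. hnRNPC is a nuclear protein that coats uridine-rich stretches of new transcripts, and ADAR is the enzyme that turns adenosine into inosine in double-stranded RNA.

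Cholesterol is assembled from acetyl-CoA through mevalonate to squalene by enzymes that are largely soluble, and from squalene to cholesterol by enzymes of the endoplasmic reticulum (ER) membrane. The genes of these enzymes are switched together by the SREBP transcription factors, the products of SREBF1 and SREBF2. When the ER membrane is poor in sterol, SCAP escorts SREBP to the Golgi for cleavage, and when it is rich in sterol, INSIG1, itself a target of SREBP, keeps SCAP in place. Oxysterols, which CH25H produces, turn on the LXR receptors and with them ABCA1, ABCG1, MYLIP and SREBF1, and interferons are known to act on both arms of the pathway in macrophages.

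Library depth ran from 95107690 to 152829008 gene counts in study 1 and from 49666958 to 73873756 in study 2. HNRNPC mRNA in study 1 was lower in every library that received its gRNA, at 312 to 323 CPM on day 5 against 811 to 869 in CTRL. CPM values were also scaled by the trimmed mean of M values (TMM). ADAR mRNA, which does not show the protein, was 373 to 396 CPM in ADAR cells and 364 to 412 in CTRL on day 5 of study 1, and 564 and 448 against 858 and 869 in study 2. IFIT1, an interferon-induced gene, was at 726, 779 and 1112 CPM in double cells on day 5, 209, 268 and 273 with IFN-α and 0.586, 0.602 and 0.993 in CTRL on day 5. Of the monocyte markers, CD33 lay at 57.0 to 63.7 CPM in CTRL on day 5, while CD14 (0.0991 to 0.272) and CD68 (0.0234 to 0.227) were near 0. Among the total libraries of study 2, CTRL replicate 2 and both double libraries stood apart. Mitochondrial MT-ND1 was at 156 CPM in that CTRL library, 68.2 and 102 CPM in the double libraries and 29.8 to 43.2 CPM in the other 5, and nuclear MALAT1 at 2723, 1817 and 2219 CPM against 824 to 1416 CPM. For the members, results that use these libraries are therefore also given without them where a call changed. In bulk RNA, fewer cells that express a gene and less RNA per cell cannot be told apart.

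In CTRL cells the cholesterol genes rose while the cells stayed in culture. From day 3 to day 5, 22 of the 26 tested members were higher and 1 was lower at an adjusted p of at most 0.05, the limit for every call below, where 9.95% of all 13193 tested genes were higher and 15.7% lower. A rise of at least 1 on the log2 scale was reached by 13 members, against 0.447% of all genes, and the median change was 0.91 for the members and -0.01 for all genes. INSIG1, the sterol-regulated anchor of SCAP, stood at 101, 94.5 and 119 CPM on day 3 and at 346, 405 and 471 CPM on day 5, a log2 fold change of 1.96 ± 0.20 (SE), adjusted p = 2.7e-09 by edgeR. DHCR7, which makes the final reduction to cholesterol, went from 16.4, 16.3 and 20.9 to 50.3, 55.3 and 70.9 CPM (1.72 ± 0.19 (SE), adjusted p = 3.1e-08). The libraries of the 2 days did not overlap for either gene.

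The rise ran through the whole pathway. All but 1 of the 17 enzymes were higher on day 5, from 1.72 for DHCR7, 1.51 for MSMO1, 1.46 for HMGCS1 and 1.35 for LSS on the log2 scale down to 0.39 for NSDHL, and the exception was PMVK at -0.17. MSMO1 oxidises methyl groups of early sterols, HMGCS1 makes the precursor of mevalonate, and LSS closes the sterol ring. Among the sensing genes, SREBF1 (at 39.2, 37.8 and 44.6 CPM on day 3 and 101, 85.0 and 108 on day 5) and SREBF2 (130.4, 129 and 135 and 195, 195 and 223) rose with INSIG1, whereas SCAP was lower with a log2 change of -0.30 ± 0.08 (SE), adjusted p = 0.0033. The cholesterol exporter ABCA1 rose from 24.8, 28.5 and 34.3 to 79.3, 92.2 and 102 CPM. By day 4, 15 of the 26 members were already higher and none lower, against 1.72% and 2.91% of all genes. That count was 8 without CTRL day 3 replicate 1 or replicate 2 and 7 without CTRL day 4 replicate 3. The day 4 calls of HMGCS1 and SQLE were among those lost. HMGCS1 also lost its call without CTRL day 3 replicate 3 (0.82) or CTRL day 4 replicate 1 (0.72). From day 3 to day 5 the monocyte marker LYZ, lysozyme, fell from 428, 399 and 300.5 to 126, 142 and 122 CPM and 5 of 6 tested monocyte markers were lower, and their part in the result was not tested.

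A rise was also measured in cells with the GFP or the ADAR gRNA, whose difference from that of CTRL was not tested. From day 3 to day 5, 22 members were higher and 0 lower in GFP cells (3.90% and 4.96% of all genes), and 20 were higher and 0 lower in ADAR cells (7.07% and 8.58%). In hnRNPC cells 17 were higher and 0 lower (25.5% and 28.1%), but the median change was 0.44, and HMGCS1 at 0.29 ± 0.21, SQLE at 0.15 ± 0.17 and MSMO1 at 0.15 ± 0.20 (SE), which rose in CTRL, did not pass. In double cells 6 members were higher and 8 lower (31.1% and 37.4%), with a median of -0.09 against -0.06 for all genes. Neither count exceeded the share of all genes, and nothing is read from these counts about the members. The 6 that rose in double cells were ABCA1, HSD17B7, SREBF1, STARD4, MYLIP and MVK, from 1.62 for ABCA1 to 0.38 for MVK. The 8 that fell ran from -0.73 ± 0.08 (SE), adjusted p = 5.3e-10 for FDPS, the enzyme that joins isoprene units, to -0.26 for SC5D. These comparisons within a group and the tests of their difference were added after the data had been seen.

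**Figure D1:**
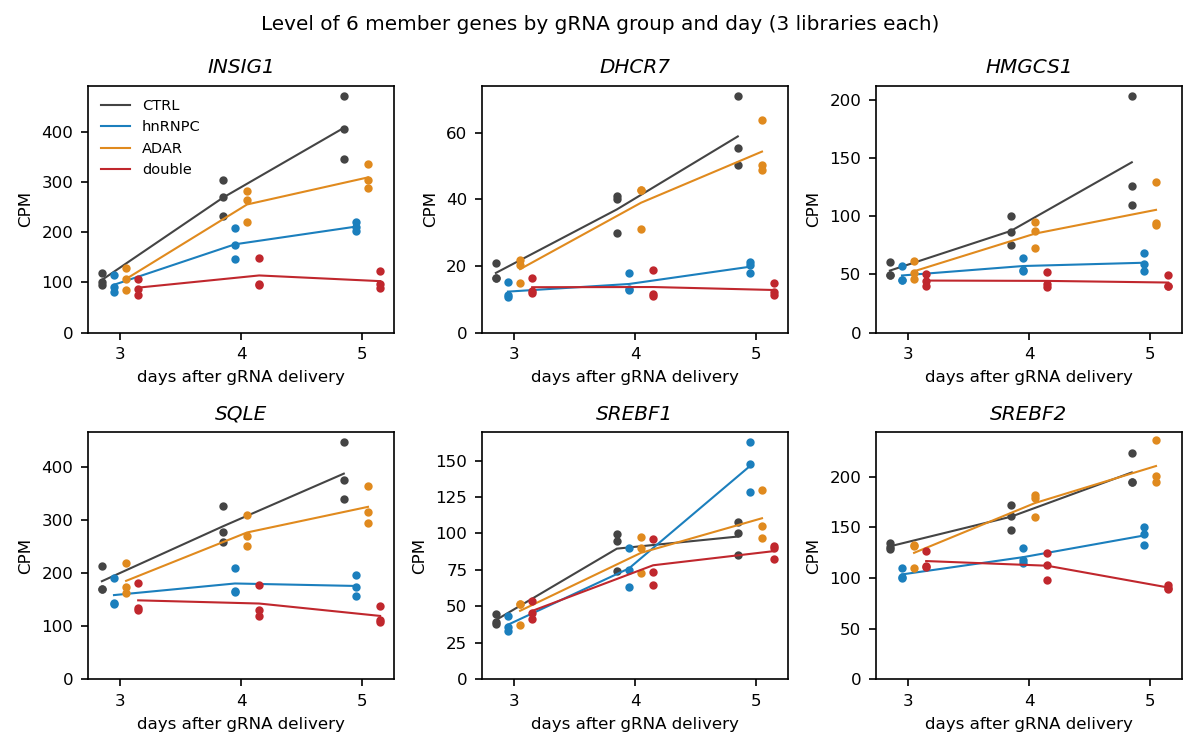
CPM (vertical axis, from 0) of 6 genes on days 3, 4 and 5 after gRNA delivery (horizontal axis) in CTRL, hnRNPC, ADAR and double cells of study 1. Each point is 1 library and each line joins the means of 3. On day 5 the double libraries lie below all CTRL libraries for INSIG1, DHCR7, HMGCS1, SQLE and SREBF2, but not for SREBF1.

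The difference between the groups' rises was tested directly. The change from day 3 to day 5 was smaller in hnRNPC than in CTRL cells for 12 members and larger for 2 (23.9% and 24.1% of all genes), and smaller in double than in CTRL cells for 20 members and larger for 1 (54.5% passed in either direction). For INSIG1 the difference was -1.76 ± 0.27 (SE), adjusted p = 8.6e-07 in double cells and -0.81 ± 0.27 (SE), adjusted p = 0.013 in hnRNPC cells, where it did not pass without hnRNPC day 3 replicate 3 (-0.66). SREBF1 rose more in hnRNPC than in CTRL cells, by 0.70 ± 0.21 (SE), adjusted p = 0.006. SREBF1 and SCAP thus departed from CTRL in the other direction than these 12 members. The 3 housekeeping mRNAs ACTB, GAPDH and EEF1A1 also had a smaller change in double than in CTRL cells, from -0.53 to -0.97. In hnRNPC cells 1 of these 3 had a larger change and 0 a smaller one. Their part in the result was not tested.

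In hnRNPC cells most members were lower than in CTRL on days 4 and 5. On day 3, 10 of 26 members were lower and 0 higher, against 25.4% and 12.6% of all genes, a count near the share of all genes from which nothing is read about the members. The largest differences were -0.88 for MVK, -0.67 for LSS, -0.62 for CYP51A1 and -0.54 for DHCR7. MVK, mevalonate kinase, had a highest hnRNPC library of 9.54 CPM and a lowest CTRL library of 13.51 CPM, with no overlap. The day 3 count was 5 without CTRL replicate 3 or without hnRNPC replicate 1, and 6 without hnRNPC replicate 2. On day 4, 17 members were lower and 0 higher, where 51.4% of all genes passed in either direction. 4 of the 17 were lower by at least 1 on the log2 scale (1.63%), namely DHCR7, LSS, MVK and CYP51A1. HMGCS1 (-0.61) and INSIG1 (-0.61) did not pass without hnRNPC replicate 2 (-0.56 and -0.50), nor HMGCS1 without CTRL replicate 3 (-0.50).

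On day 5, 21 of 26 members were lower in hnRNPC than in CTRL cells and 2 were higher, where 35.2% and 29.6% of all genes were. With a log2 change of at least 1, 5 members were lower, against 3.74% of all genes. DHCR7 was at 20.2, 17.9 and 21.2 CPM in hnRNPC and 50.3, 55.3 and 70.9 CPM in CTRL cells (-1.58 ± 0.19 (SE), adjusted p = 6.5e-09 by edgeR). MSMO1 was at 43.3, 50.4 and 50.9 against 108, 125 and 168 CPM (-1.47 ± 0.20 (SE), adjusted p = 6.4e-08), and HMGCS1 at 52.7, 59.1 and 68.4 against 109.6, 126 and 204 CPM (-1.29 ± 0.21 (SE), adjusted p = 1.8e-06). In these 3 genes the 2 groups did not overlap, and CTRL replicate 3 was the highest library for each. SQLE, the epoxidase that commits squalene to sterols, was at 157, 173 and 197 against 339, 376 and 448 CPM (-1.14), and MVK had a log2 change of -1.08. The exceptions lay mostly among sensing and transport: SREBF1 (163, 128 and 148 against 101, 85.0 and 108 CPM) and SCAP (0.46) were higher, while ABCA1 (0.04), NPC1 (0.06) and EBP (-0.19) did not pass. Beside these values, the monocyte marker ITGAM was higher by 1.15, with 3 of 6 tested monocyte markers higher and 1 lower, and CD14 lay at 3.32, 2.53 and 3.78 CPM; their part in the result was not tested.

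In double cells most of the synthesis genes were lower than in CTRL from day 4 on. On day 3 only MVK, TMEM97 and PMVK were lower than in CTRL, 3 members against 16.7% of all genes lower and 12.0% higher. Same-numbered libraries of these 2 groups deviated together, and with the replicate number as a block 10 members passed, whereas none did without CTRL replicate 3. On day 4, 22 members were lower and 0 higher (31.5% and 25.5%), with DHCR7 at -1.43, INSIG1 at -1.24, LSS at -1.20 and MSMO1 at -1.15. IFIT1 was then at 16.9, 20.3 and 41.5 CPM in double and 0.469, 0.513 and 0.942 CPM in CTRL cells, and all 3 tested interferon-induced markers were higher, with a median log2 change of 5.33. Their part in the result was not tested.

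On day 5, 21 members were lower in double than in CTRL cells and 2 were higher, against 39.0% and 34.5% of all genes, and 15 were lower by at least 1 on the log2 scale, against 6.22%. The median was -1.18 for the members and -0.04 for all genes. DHCR7 was at 11.2, 12.1 and 15.0 CPM against 50.3, 55.3 and 70.9 (-2.20 ± 0.20 (SE), adjusted p = 1.5e-12 by edgeR). INSIG1 was at 97.1, 88.4 and 122 CPM against 346, 405 and 471 (-1.99 ± 0.20 (SE), adjusted p = 1.8e-11), which is near its day 3 level in CTRL. HMGCS1 was at 39.8, 39.9 and 49.4 against 109.6, 126 and 204 CPM (-1.77 ± 0.21 (SE), adjusted p = 2.4e-09). For all 3 the highest double library lay below the lowest CTRL library.

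Of the 17 enzymes, 16 were lower in double cells on day 5 and 13 by at least 1. All 7 enzymes of the mevalonate arm were among the 16, from -1.77 for HMGCS1 and -1.60 for FDPS to -0.52 for PMVK. Of the 10 that make squalene or act from it on, 9 were lower, from -2.20 for DHCR7, -2.02 for MSMO1, -1.74 for LSS and -1.70 for SQLE to -0.84 for EBP. HSD17B7, a ketosteroid reductase of the same steps, was higher instead, at 31.3, 31.5 and 35.7 CPM against 23.3, 24.9 and 29.1 (0.35 ± 0.12 (SE), adjusted p = 0.0077), with every double library above every CTRL library. SREBF2, the SREBP most tied to cholesterol, was at 88.9, 89.7 and 93.3 against 195, 195 and 223 CPM (-1.17). SREBF1 at 91.5, 82.5 and 89.7 against 101, 85.0 and 108 CPM did not pass (-0.16 ± 0.15 (SE), adjusted p = 0.34), nor did ABCA1 (-0.15 ± 0.18 (SE), adjusted p = 0.47) and STARD4 (-0.30). SCAP was higher by 0.43. Beside these values, ITGAM was higher by 2.31, with 3 of 6 tested monocyte markers higher and 2 lower. The housekeeping mRNAs ACTB, GAPDH and EEF1A1 were all lower, from -0.42 to -1.02. Of 4 markers of ER-translated mRNA, 3 were lower, with a median of -0.71 for the 4. The part of these genes in the result was not tested.

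**Figure D2:**
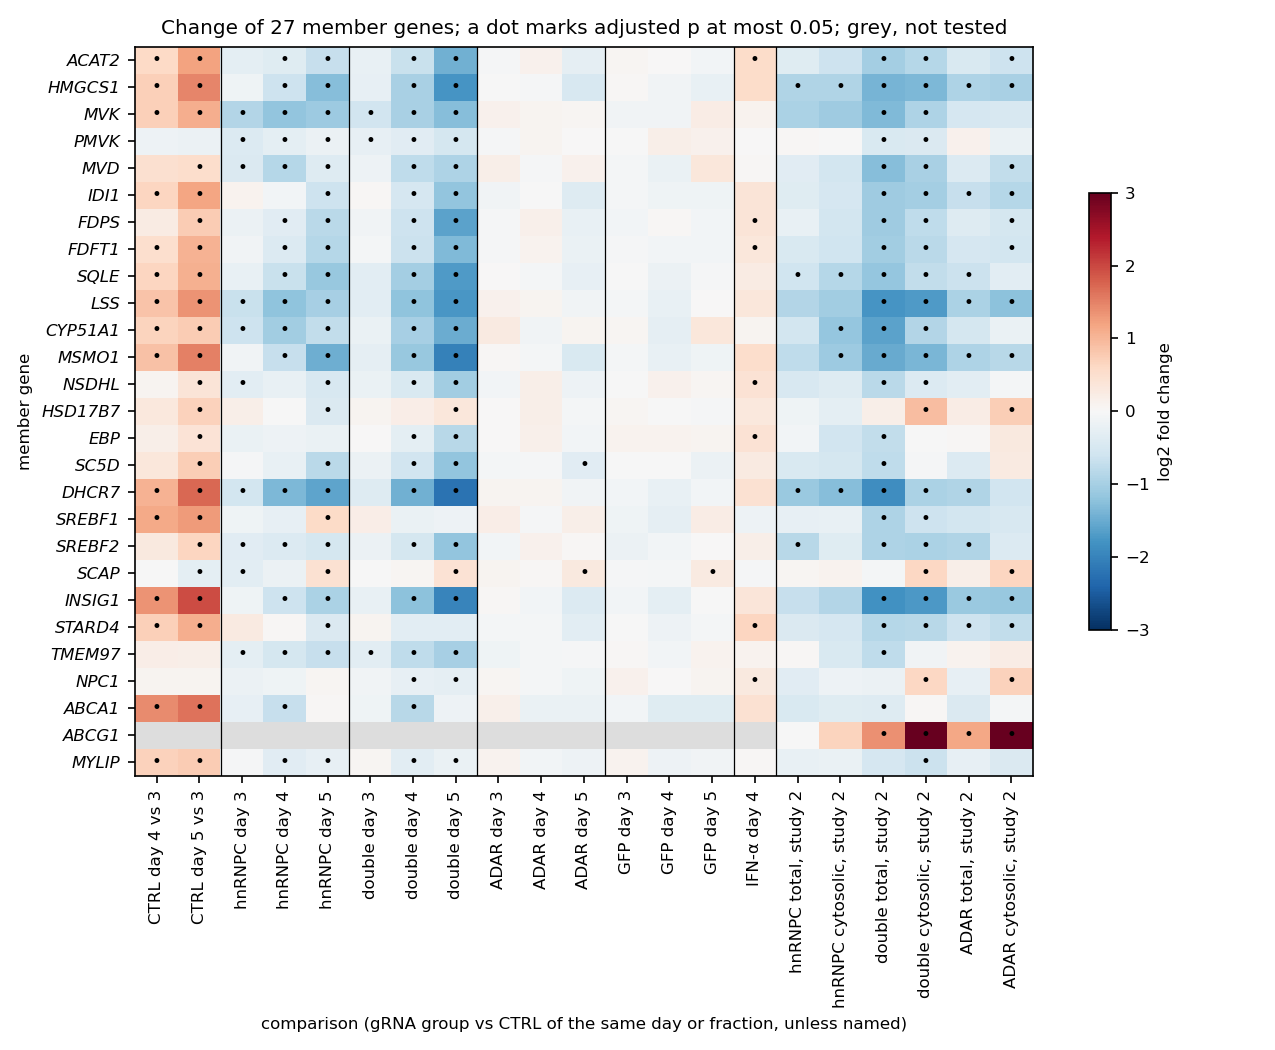
Log2 fold change of 27 members (rows) in each comparison (columns), red for higher and blue for lower, with a dot where the adjusted p is at most 0.05 and grey where a gene was not tested. CTRL cells over time are largely red, hnRNPC and double cells largely blue from day 4 on, and ADAR and GFP cells of study 1 pale.

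Where both gRNAs were present, some genes were lower than either gRNA alone would add up to. Against hnRNPC cells on day 5, double cells had 20 members lower and 1 higher (32.8% and 29.3% of all genes), led by INSIG1 at -1.04 ± 0.19 (SE), and HMGCS1 in that list (-0.48) lost its call without any 1 of hnRNPC replicates 2 or 3 or double replicates 1 or 2 (-0.38 to -0.49). Against ADAR cells 20 were lower and 1 higher (37.8% and 32.8%), led by DHCR7 at -2.09 ± 0.20. SREBF1 was lower than in ADAR cells at -0.33 ± 0.15 (SE), adjusted p = 0.044, which did not pass without ADAR replicate 3 (-0.20) or without any 1 double library (-0.29 to -0.36). The interaction of the 2 gRNAs in edgeR, the double value minus the sum of the separate changes, passed for 0 members on day 3 (higher in 0% and lower in 0% of all genes), with 0 also at an unadjusted p under 0.05 and by DESeq2 and limma-voom, for 1 on day 4 (FDPS, -0.46 ± 0.12; 6.40% lower) and for 11 on day 5. With the replicate number as a block these counts were 0, 9 and 17.

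On day 5 the interaction was negative for 10 members and positive for 1, where it was negative for 23.7% and positive for 23.9% of all genes. It was largest for SREBF1 (-0.91 ± 0.21 (SE), adjusted p = 4.4e-04 by edgeR), which was up with hnRNPC targeting alone and not in double cells. CYP51A1, the sterol demethylase, followed at -0.85, then SREBF2 at -0.69, and HSD17B7 was the positive one at 0.84 ± 0.17 (SE), adjusted p = 7.6e-05. The interaction of INSIG1, -0.64 ± 0.27 (SE), adjusted p = 0.047, did not pass without any 1 of CTRL replicates 1 or 2, hnRNPC replicates 1, 2 or 3, ADAR replicates 2 or 3, or double replicates 1 or 2 (-0.54 to -0.67). For HMGCS1 (-0.01 ± 0.29) and MSMO1 (-0.10 ± 0.28) no departure from the sum was measured beyond these errors (SE). The 3 housekeeping mRNAs ACTB, GAPDH and EEF1A1 all passed with a negative interaction, from -0.52 to -0.76. Their median was -0.62, against -0.32 for the members, and their part in the result was not tested.

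Promoter letters are shown for genes that moved together, from RefSeq on GRCh38.p14, as windows of 30 bases within the 250 bases before to 50 after each gene's start. Of the 28 members, 24 had a promoter in that collection. The short sterol regulatory element TCACNCCA, in capitals below and searched on both strands, was found in 3 of the 24 (12.5%) against 3.93% of all 27305 promoters, and the longer form TCACNCCAC, which contains it, in 1 of them (4.17% against 1.15%):
MVK, chr12:109573588-109573617, plus strand: gttcgcagttcTCACCCCAgggcgggacac
MSMO1, chr4:165327502-165327531, plus strand: tctcactatccTCACTCCAtccgcggagcc
SREBF2, chr22:41832961-41832990, plus strand: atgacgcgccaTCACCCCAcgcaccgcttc
The CCAAT box, which binds the factor NF-Y, was found on either strand in 16 of the 24 (66.7%) against 35.7% of all promoters. It is shown for 5 of the genes with the largest falls, in capitals as CCAAT or, where it lies on the other strand, as ATTGG:
DHCR7, chr11:71448425-71448454, minus strand: gggtccgcctccgATTGGcaggcaatcgct
MSMO1, chr4:165327622-165327651, plus strand: gagctctcgcaggCCAATaacgacaggacg
INSIG1, chr7:155297695-155297724, plus strand: ccgccggcctcccATTGGttgcggccgcct
HMGCS1, chr5:43313496-43313525, minus strand: tctaccggccgcgATTGGctgtgggagcca
LSS, chr21:46228908-46228937, minus strand: tcgcggcgctctgATTGGttgcgtgggcgt
The core of the interferon-stimulated response element, TTTC, any 2 letters and TTTC again, was found in 0 of the 24 windows and in 3.65% of all promoters. A match is a description of letters and not of binding.

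Reads that fall in introns were lower by at least 1 on the log2 scale for some of the members' introns in hnRNPC cells and for most in double cells on day 5. Among 21798 introns tested in study 1, 58 lay in 20 of the members, out of 351 introns of members listed. A call here needed an adjusted p of at most 0.05 and a log2 change of at least 1. In hnRNPC cells 0 of the 58 passed on day 3 (2.49% of all introns higher, 0.138% lower), 3 were lower on day 4 (3.57% and 0.505%) and 21 were lower on day 5 (4.00% and 2.35%). The hnRNPC median on day 5 was -0.76, against -0.06 over all introns. At the adjusted p alone, 22 of the 58 passed on day 4 and 43 on day 5 in hnRNPC cells, and 54 in double cells on day 5. The share of all introns at that limit is not given here. In double cells on day 5, 43 were lower and 1 higher (5.49% and 8.03%), and the median over the 58 was -1.53 against -0.28 over all introns. In ADAR cells edgeR passed none of the 58 and none of all introns, and 3 of the 58 had an unadjusted p under 0.05, as had 6 in hnRNPC cells on day 3.

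The lower introns of double cells covered both arms of the pathway. MSMO1 had an intron at chr4:166254778-166258940 (GRCh37) with a mean of 1.88 CPM in double and 10.0 CPM in CTRL cells, a log2 fold change of -2.41. The INSIG1 intron at chr7:155094557-155099950 was at 7.11 against 22.7 CPM (-1.67). SREBF2 had 9 lower introns, from -1.23 to -1.87. HSD17B7 had 2 lower introns, at -1.48 and -1.53, although its exon reads were higher. The 1 intron that was higher, by 1.35, is that of CYP51A1 at chr7:91718844-91722410, which also lies within AKAP9 on the other strand and within a stretch of RNA editing described below.

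**Figure D3:**
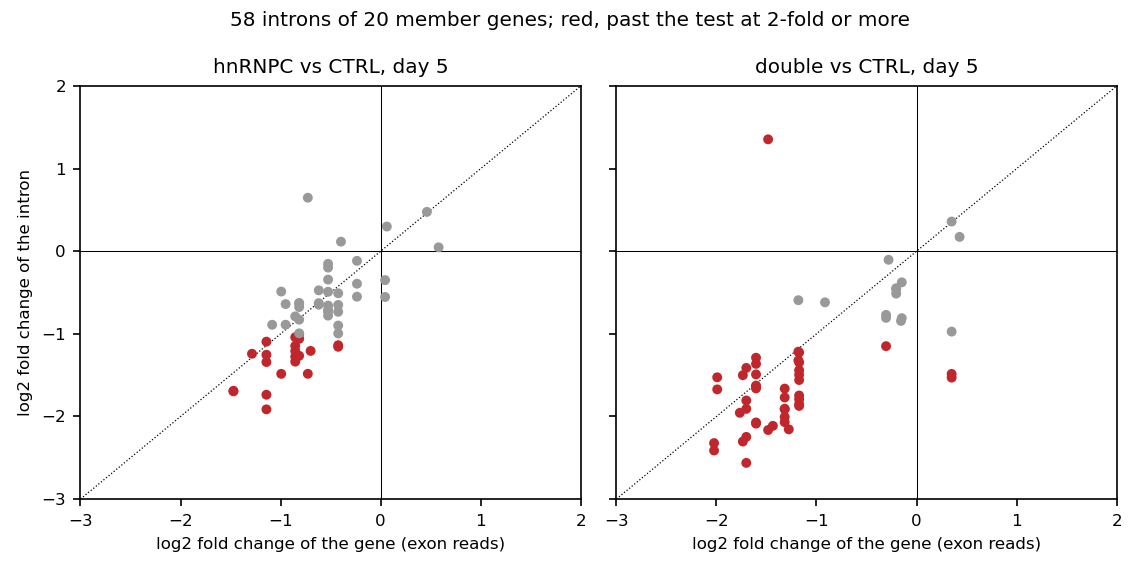
Log2 fold change of each of 58 introns (vertical axis) against that of its gene's exon reads (horizontal axis) on day 5 of study 1, hnRNPC against CTRL on the left and double against CTRL on the right. Each point is 1 intron, red where it passed, and the dotted line marks equal change. In double cells 43 red points lie below 0 and 1 above it.

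The ADAR gRNA alone and the GFP gRNA gave few calls among these genes in study 1 without a replicate block. In ADAR cells no member passed on day 3 (higher in 0% and lower in 0% of all genes) or on day 4 (0.553% and 0.0910%), and on day 5 SCAP was higher (0.30) and SC5D lower (-0.35), against 4.45% and 4.78%. The day 5 count of 2 was 0 without CTRL replicate 2 or ADAR replicate 3, 1 without CTRL replicate 3, ADAR replicate 1 or ADAR replicate 2, and 11 with the replicate number as a block, which the deviations of these libraries share. INSIG1 stood at 287, 303 and 336 CPM in ADAR cells (-0.40 ± 0.19 (SE), not passed). At an unadjusted p under 0.05, 0 members differed in ADAR cells on day 3 or 4, and DESeq2 and limma-voom also passed 0. In GFP cells edgeR passed no member on day 3 (0.0303% of all genes higher and 0% lower) or day 4 (0.0227% and 0%), with 0 and 2 members at an unadjusted p under 0.05 and 0 by DESeq2 and limma-voom. On day 5 SCAP alone passed in GFP cells (0.27; 5.36% of all genes higher, 1.94% lower), 1 member that became 2 with the block and 0 without CTRL replicate 2 or 3 or GFP replicate 1 or 3.

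With IFN-α, 7 members were higher than in CTRL cells on day 4 and 0 lower, against 11.1% and 7.19% of all genes. They were STARD4, a carrier of sterol between membranes, at 157, 139.5 and 195 against 101, 98.6 and 116 CPM (0.64 ± 0.14 (SE), adjusted p = 0.0013 by edgeR), then ACAT2 (0.55), NSDHL (0.44), EBP (0.43), FDPS (0.39), FDFT1 (0.34) and NPC1 (0.29). None reached 1. The count was 2 without IFN-α replicate 3, 4 without CTRL replicate 1, 11 without IFN-α replicate 1, and 17 higher and 0 lower with the replicate number as a block. INSIG1 stood at 313, 283 and 444 CPM with IFN-α and 269, 232 and 304 without (0.37 ± 0.19, not passed), and at 97.0, 95.3 and 149 in double cells that day.

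Efflux and oxysterol genes followed the synthesis genes only in part. ABCA1, which loads cholesterol onto lipoproteins, rose from day 3 to day 5 in every group tested. It was lower than in CTRL on day 4, at -0.69 in hnRNPC and -0.83 in double cells. By day 5 the groups overlapped. Its levels were then 79.3, 92.2 and 102 CPM in CTRL, 81.5, 85.1 and 115 in hnRNPC and 70.5, 71.7 and 104 in double cells. MYLIP, the LXR-induced ubiquitin ligase, was lower than in CTRL on day 4 in hnRNPC (-0.34) and double cells (-0.32). It was still slightly lower on day 5 in hnRNPC (-0.24) and double cells (-0.20). ABCG1, the partner transporter, was below the test's level limit in study 1, with a mean of 0.171 ± 0.0402 CPM (SD, n = 3) in CTRL, 0.346 ± 0.108 in hnRNPC, 0.332 ± 0.0535 in ADAR and 1.30 ± 0.253 in double cells on day 5. Its double libraries, 1.19, 1.13 and 1.59 CPM, lay above all others of the study.

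CH25H, the enzyme that makes an oxysterol from cholesterol, was counted in study 1 mainly where both gRNAs were present, but in study 2 also in ADAR cytosolic RNA. Its raw counts in the double libraries of study 1 were 0, 0 and 3 at day 3. They became 6, 0 and 2 at day 4 and then 14, 37 and 51 at day 5. Elsewhere in that study it had 3 counts in 1 ADAR library of day 5 and 0 in all others, IFN-α included, where a count of 0 allows at most 0.0196 to 0.0315 CPM by depth (3 counts, counting error only). Over the 3 libraries of day 5, double cells were at least 41.1-fold higher than CTRL, the floor being 3 counts over the CTRL group. In study 2 it had 11 and 13 counts in double total, 13 and 8 in ADAR cytosolic and 10 and 8 in double cytosolic RNA, 4 and 0 in ADAR total and 0 in the CTRL and hnRNPC libraries.

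**Figure D4:**
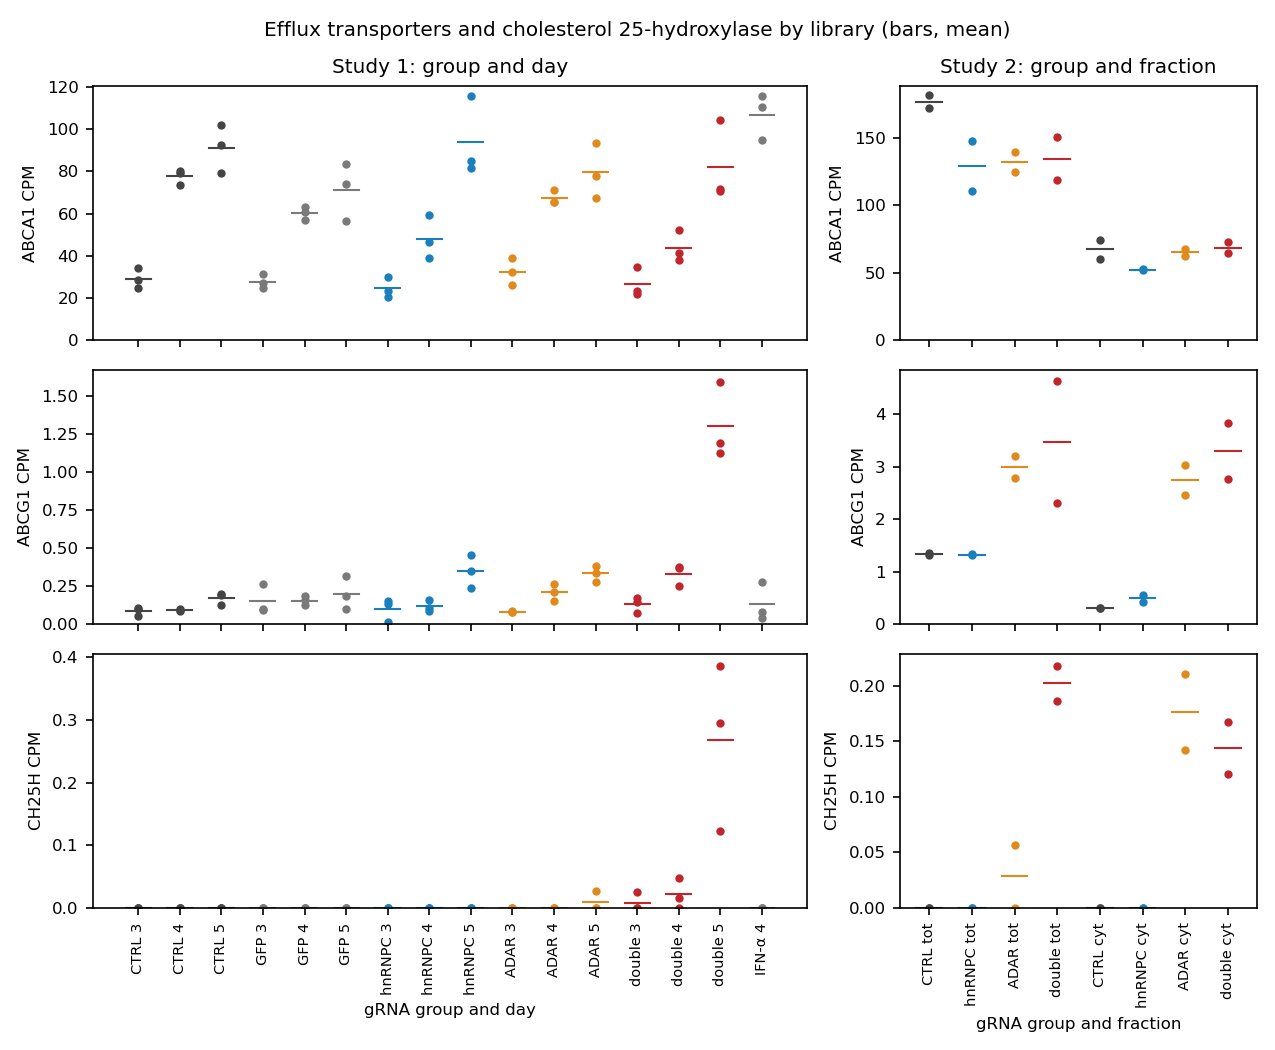
CPM (vertical axes, from 0) of ABCA1, ABCG1 and CH25H in each whole-cell or cytosolic library, by gRNA group and day in study 1 (left) and by gRNA group and fraction in study 2 (right). Points are libraries and bars their mean. ABCG1 and CH25H are highest in double cells on day 5 of study 1, where ABCA1 is not.

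Study 2, with another clone and other gRNAs, was measured on day 4 only, in 2 libraries per group. In total RNA of hnRNPC cells 4 of 27 members were lower and 0 higher, against 3.03% and 2.08% of all 13650 tested genes. They were DHCR7 (24.3 and 15.9 against 51.4 and 36.3 CPM, -1.12 ± 0.27 (SE), adjusted p = 0.029 by edgeR), HMGCS1 (-0.90), SREBF2 (-0.84) and SQLE (-0.59). The count was 4 without CTRL total replicate 2, where SREBF2 no longer passed (-0.63), 2 without CTRL total replicate 1, 0 without hnRNPC total replicate 2 and 12 with the replicate number as a block. SQLE lost its call without any 1 of CTRL total replicate 1 or the hnRNPC total libraries (-0.37 to -0.71). In cytosolic RNA 5 were lower and 0 higher (1.88% and 0.725%), namely DHCR7 (-1.28), CYP51A1 (-1.16), MSMO1 (-1.10), HMGCS1 (-0.90) and SQLE (-0.86), a count of 2 or 3 without CTRL cytosolic replicate 1 or 2, 1 without hnRNPC cytosolic replicate 2 and 14 with the replicate block. HMGCS1 was lost there without CTRL cytosolic replicate 1 (-0.86) or hnRNPC cytosolic replicate 2 (-0.71).

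In double cells of study 2, 22 members were lower in total RNA and 1 was higher, against 22.2% and 12.4% of all genes, and 13 were lower by at least 1 (0.930%). INSIG1 was at 116 and 72.1 CPM against 378 and 280.1 in CTRL (-1.81 ± 0.30 (SE), adjusted p = 3.2e-04 by edgeR). DHCR7 was at 15.0 and 9.28 against 51.4 and 36.3 CPM (-1.85), LSS at -1.78, CYP51A1 at -1.62, MSMO1 at -1.52 and HMGCS1 at -1.39. SREBF1, which did not pass in study 1, was lower here (71.1 and 57.8 against 131 and 112 CPM, -0.92), but not without double total replicate 2 (-0.77). Without CTRL total replicate 2, 23 members passed, with INSIG1 at -1.95 and HMGCS1 at -1.42. ABCA1 at -0.39 lost its call without CTRL total replicate 1 (-0.35), CTRL total replicate 2 (-0.38) or double total replicate 2 (-0.23). Beside these values, the ER-translated mRNAs CALR (-0.69), PDIA3 (-0.56) and CANX (-0.43) were lower in double total RNA, HSPA5 (-0.05 ± 0.26) did not pass, and MT-ND1 and MALAT1 were high in the libraries named above; their part in the result was not tested. The level of ABCG1 was 4.64 and 2.32 CPM in double and 1.36 and 1.32 in CTRL cells (1.37 ± 0.28 (SE), adjusted p = 0.0016). In cytosolic RNA 19 members were lower and 4 higher (20.5% and 20.1%), with INSIG1 at -1.72 and LSS at -1.71. SREBF1 at -0.63 lost its call there without CTRL cytosolic replicate 1 (-0.72) or 2 (-0.52) or double cytosolic replicate 2 (-0.34).

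ADAR cells of study 2 also had lower synthesis genes, unlike the few calls of study 1. The 2 studies differ in clone and gRNA and were not tested against each other. In total RNA of study 2 IFIT1 was at 20.2 and 11.2 CPM in CTRL and 82.7 and 52.8 CPM in ADAR cells. Its CTRL level was lower in study 1, as given above. All 3 tested interferon-induced markers were higher in ADAR total RNA (median 2.13), and their part in the result was not tested. In total RNA 9 members were lower and 1 higher (3.88% and 9.01% of all genes), with INSIG1 at 179.9 and 124 against 378 and 280.1 CPM (-1.11 ± 0.29 (SE), adjusted p = 0.02), LSS at -0.94, HMGCS1 at -0.93 and MSMO1 at -0.92. The 10 calls became 6 without CTRL total replicate 1 or 2, 5 without ADAR total replicate 1, 3 without ADAR total replicate 2 and 16 with the replicate block, and INSIG1 did not pass without CTRL replicate 1 (-0.88), CTRL replicate 2 (-1.28) or ADAR replicate 2 (-0.87). SREBF2 did not pass without CTRL total replicate 2 (-0.67), nor SQLE without ADAR total replicate 2 (-0.55). In cytosolic RNA 10 members were lower and 4 higher (6.60% and 16.1%), 14 calls in all that became 8 without CTRL cytosolic replicate 1 and 6 without ADAR cytosolic replicate 2. INSIG1 at -1.13 did not pass without either of these (-1.03 and -0.94).

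The 4 members that were higher in the cytosolic RNA of both ADAR and double cells were ABCG1, HSD17B7, NPC1 and SCAP. All 4 encode membrane proteins, as do most of the tested members. In neither group did this count exceed the share of all genes higher in cytosolic RNA, given above, so nothing is read from it about the members. The level of ABCG1 in cytosolic RNA was 3.03 and 2.47 CPM in ADAR, 3.84 and 2.76 in double and 0.308 and 0.305 in CTRL cells, a log2 fold change of 3.15 ± 0.33 (SE), adjusted p = 4.7e-06 and of 3.42 ± 0.33 (SE), adjusted p = 9.3e-07. NPC1, which exports cholesterol from lysosomes, was at 13.9 and 14.3 and 13.2 and 13.6 against 7.79 and 9.70 CPM (0.69 and 0.62). Beside these values, 3 of 4 general markers of ER-translated mRNA (CALR, PDIA3 and CANX, not HSPA5) were also higher in the cytosolic RNA of ADAR cells (median 0.93) and of double cells (median 0.61). In total RNA the same 3 were lower in double cells, and HSPA5 was lower in ADAR cells (-0.92). HSPA5 was at 149 and 186 CPM there and at 188 and 446 CPM in CTRL, the 446 being CTRL replicate 2, which stood apart. The part of these markers in the result was not tested.

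The difference between cytosolic and total RNA is presented here with the members grouped by where their protein resides. The part of protein location in the result was not tested. Comparing cytosolic with total RNA over the 4 matched groups, 17 of 27 members were lower and 5 higher, against 27.2% and 49.3% of all genes, and 7 were lower by at least 1 (8.29%). Of 15 tested members whose proteins sit in the ER membrane, 12 were lower and 0 higher, with a median of -0.55, led by SREBF1 (-2.01 ± 0.11 (SE), adjusted p = 9.3e-11 by edgeR), SCAP (-1.61), DHCR7 (-1.58), SQLE (-1.15) and CYP51A1 (-1.14). INSIG1 (-0.17 ± 0.14), HSD17B7 and FDFT1 were the 3 that did not pass. NPC1 (-1.66), ABCA1 (-1.17) and ABCG1 (-0.94), membrane proteins of other compartments, were lower as well, and the 4 markers of ER-translated mRNA had a median of -2.03. These values average 4 gRNA groups. For ABCG1 the levels were 0.308 and 0.305 CPM in cytosolic against 1.36 and 1.32 CPM in total RNA of CTRL cells, and 3.03 and 2.47 against 3.20 and 2.78 CPM in ADAR cells, where the fractions overlapped. For NPC1 they were 7.79 and 9.70 against 37.8 and 39.2 CPM in CTRL and 13.9 and 14.3 against 32.3 and 33.2 CPM in ADAR cells. Whether the cytosolic difference itself varied between groups was not tested.

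The soluble enzymes had members in both directions. Of these 7, IDI1 (0.37), ACAT2 (0.29), PMVK (0.26) and HMGCS1 (0.26) were higher in cytosolic RNA and MVD (-0.22) and FDPS (-0.21) lower. Their median of 0.26 was close to that of all genes, 0.17, which scaling on the tested genes alone moved by -0.15. With that scaling 1 of the 7 was higher and 2 lower, and HMGCS1 also lost its call without CTRL total replicate 2 (0.20). The ER membrane group had 12 or 13 lower and 0 higher under each of 5 scaling and filter settings. Without CTRL total replicate 2, 22 members passed, as with it.

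Against the nuclear and mitochondrial remainder of hnRNPC cells, 13 members were lower and 5 higher in the cytosol (25.8% and 45.2% of all genes). NPC1 was at 8.16 and 7.59 CPM in the cytosol and 63.0 and 46.8 in the remainder (-2.80), and SREBF1 at 26.5 and 21.6 and 124 and 136 (-2.43). In the other direction IDI1 was at 144 and 125 and 53.2 and 63.9 CPM (1.20). Of the ER membrane group 10 of 15 were lower with a median of -1.10, and of the soluble enzymes 4 of 7 were higher with a median of 0.61, against 0.27 for all genes, which scaling on the tested genes alone moved by -0.24, with 3 higher and 1 lower. HMGCS1 in that group (0.61) did not pass without hnRNPC cytosolic replicate 1 (0.39).

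**Figure D5:**
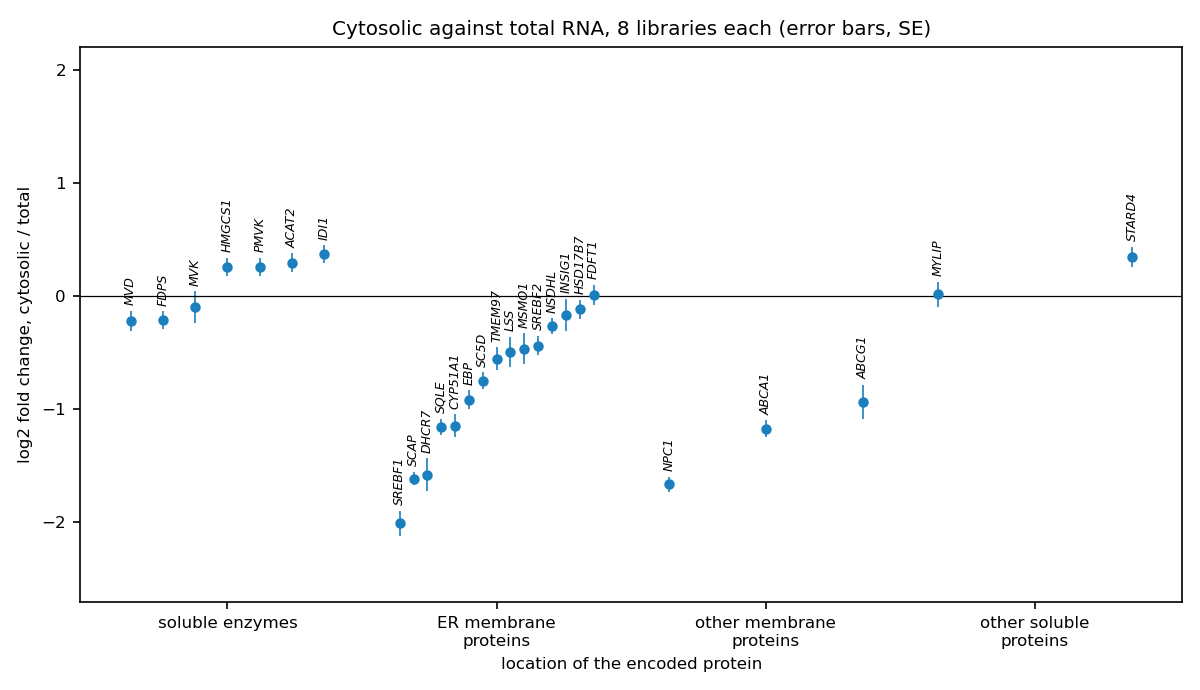
Log2 fold change between cytosolic and total RNA of study 2 (vertical axis) for 27 members, grouped by where the encoded protein resides (horizontal axis). Points are genes over 8 libraries of each kind and bars are the SE. No ER membrane protein's mRNA passed above 0 and 12 passed below it.

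Some members carry stretches of adenosine-to-inosine editing, read as G in the sequenced RNA. In FDPS at chr1:155281587-155286394 (GRCh37, 193 sites) the share of G was 2.32% ± 0.0733 (SD, n = 3) in CTRL, 0.976% ± 0.171 in ADAR, 3.19% ± 0.716 in hnRNPC and 2.16% ± 0.609 in double cells on day 5. In STARD4 at chr5:110844445-110848251 (60 sites) it was 6.71% ± 2.01, 3.25% ± 0.717, 9.71% ± 2.92 and 5.90% ± 0.827 in the same order. ADAR cells had the lowest mean share in both, and these shares are given as a description, with no test. Reads over the CYP51A1 stretch at chr7:91718746-91723100, whose 55 sites read on the strand of AKAP9, were 6.73 ± 0.250 CPM in CTRL and 11.7 ± 1.22 CPM in double cells on day 5 (SD, n = 3), while the CYP51A1 gene as a whole was lower. FDFT1 held 2 further stretches, of 74 and 26 sites.

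Of 8 tested fatty acid genes under SREBP control, 4 were higher in CTRL on day 5 than on day 3 and 0 lower (9.95% and 15.7% of all genes), led by FADS2 (2.40) and SCD (2.03), which desaturate fatty acids. In double cells on day 5, 7 of the 8 were lower and 1 higher (39.0% and 34.5% of all genes), with SCD at 87.8, 83.6 and 122 against 329.6, 364 and 455 CPM in CTRL (-1.97 ± 0.22 (SE), adjusted p = 2.7e-10 by edgeR), FADS1 at -1.78, FADS2 at -1.71 and ACLY at -0.86. In hnRNPC cells 4 of the 8 were lower and 0 higher, against 35.2% and 29.6% of all genes, with FADS1 at -1.26.

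Of 15 further tested sterol genes, 10 were lower and 2 higher in double cells on day 5, and 11 lower and 2 higher in hnRNPC cells, where the shares of all genes were those just given. Their medians were -0.43 and -0.32, against -0.04 and -0.03 for all genes. Among them LBR (-1.20) and NPC2 (-1.09) were lower in double cells. NCEH1, which releases stored cholesterol, was higher (1.00 in double cells). Of 5 tested genes of the LXR arm, NR1H3 (LXRα, 0.57) and NR1H2 (LXRβ, 0.36) were higher in double cells and LPCAT3 (-0.74) and SMPDL3A (-0.21) lower. In total RNA of double cells of study 2, 6 of the 8 fatty acid genes were lower and 1 higher, and 6 of the 15 sterol genes were lower and 0 higher, against 22.2% lower and 12.4% higher of all genes.

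The strand setting of the counting is not given in the sources used here, and exons of 14 members overlap a gene on the other strand, among them HMGCS1, MVK with MMAB, CYP51A1 with AKAP9, ACAT2 with TCP1, NPC1 with RMC1 and SREBF2 with SREBF2-AS1. Values of these genes may include reads of their neighbours if strand was not used.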

How the data were processed

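Gene, intron and editing-site counts were deposited by the authors as raw counts per library. Per the labels and the study's methods, reads from ribosomal-RNA-depleted stranded total RNA were aligned to GRCh37 with STAR 2.5.4a and unique reads over GENCODE exons were counted with featureCounts. The strand setting of the counting is not given in the sources used here. Groups came from the labels. The members and gene lists were chosen with earlier results of these data known.

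From the counts, edgeR 4.0.16 quasi-likelihood models (R 4.3.3, limma 3.58.1) were fitted once per study with 1 coefficient per group, TMM factors from all 57820 genes, and genes with an average log2 CPM of at least 0.5 (prior count 2), which left 13193 and 13650 genes. P-values were adjusted by Benjamini-Hochberg over all tested genes, and SE is the log2 fold change divided by the square root of F. Introns needed an average log2 CPM of at least 1. The share of G is G reads over all reads at the sites of a region, in percent. The steps were tested on simulated data with known changes. DESeq2 1.42.0 and limma-voom were alternatives, figures were drawn with matplotlib 3.10.9, and Python was 3.11.15.

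All 28 members are accounted for. Values per library are given for up to 6 members per comparison with the largest change among those that passed and for INSIG1, SQLE, HMGCS1, SREBF1, SREBF2, ABCA1 and CH25H, and up to 4 genes are named from each other list. Comparisons over time within the gRNA groups other than CTRL and the tests of their difference were chosen after seeing the data.

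Replicates are labelled as separate samples, from 3 independent experiments in study 1 and 2 in study 2. No library was a copy of another, since within groups their counts differed by a chi-square per gene of at least 12.1. Same-numbered libraries deviated together, with every correlation of deviations over 0.1, in 9 of the study 1 comparisons. No source used here ties a number to an experiment, so the fit without a block was kept and the count with the replicate block stands beside each count it moved by over 1.5 times. Totals of 95107690 to 152829008 and 49666958 to 73873756 counts set the precision, and floors cover counting error only.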

Additional observations from a re-analysis of the deposited data

Results flagged for a closer look

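The following members had changes that differed between groups of study 1 by the test of the difference itself, an interaction term in edgeR at an adjusted p of at most 0.05. Each value in parentheses is that difference on the log2 scale, and the percentages of all genes that passed stand in the report.

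In double cells the change from day 3 to day 5 was smaller than in CTRL cells for DHCR7 (-1.81), INSIG1 (-1.76), MSMO1 (-1.75), HMGCS1 (-1.51), FDPS (-1.50), LSS (-1.43), SQLE (-1.39), CYP51A1 (-1.27), FDFT1 (-1.25), ACAT2 (-1.21), IDI1 (-1.21), SC5D (-1.01), SREBF2 (-1.0), EBP (-0.85), NSDHL (-0.84), MVD (-0.77), MVK (-0.71), TMEM97 (-0.68), PMVK (-0.29) and MYLIP (-0.27), and larger for SCAP (0.45). In hnRNPC cells it was smaller than in CTRL cells for MSMO1 (-1.36), HMGCS1 (-1.17), DHCR7 (-1.03), SQLE (-0.92), INSIG1 (-0.81), SC5D (-0.78), FDFT1 (-0.75), IDI1 (-0.73), STARD4 (-0.70), FDPS (-0.65), HSD17B7 (-0.59) and TMEM97 (-0.39), and larger for SREBF1 (0.70) and SCAP (0.77). Both sets of differences share the CTRL libraries.

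The double value departed from the sum of the hnRNPC and ADAR changes on day 5 downward for SREBF1 (-0.91), CYP51A1 (-0.85), SREBF2 (-0.69), INSIG1 (-0.64), LSS (-0.64), MVD (-0.64), FDPS (-0.57), EBP (-0.56), PMVK (-0.35) and SCAP (-0.33), and upward for HSD17B7 (0.84). On day 4 it departed for FDPS (-0.46).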

How the results depend on the processing

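In study 1 the calls in double cells on days 4 and 5 and in hnRNPC cells on days 4 and 5 kept within 1.5 times their number of members under every setting run. Without the filter on low counts, the number of members past the test was 8 in double cells on day 3, 2 in GFP cells on day 4, 9 in ADAR and 3 in GFP cells on day 5, 17 with IFN-α, 6 for the interaction on day 4, and in study 2 it was 10 in hnRNPC total and 16 in hnRNPC cytosolic RNA. With the replicate block it was 10 in double cells on day 3, 11 in ADAR and 2 in GFP cells on day 5, 17 with IFN-α, 9 and 17 for the interaction on days 4 and 5, and in study 2 it was 12 in hnRNPC total, 16 in ADAR total and 14 in hnRNPC cytosolic RNA. With only the compared libraries in the fit it was 4 in ADAR and 0 in GFP cells on day 5, 2 with IFN-α, 0 in hnRNPC total, 12 in hnRNPC cytosolic and 22 in ADAR cytosolic RNA. DESeq2 gave 8, 19 and 8 in hnRNPC total, ADAR total and hnRNPC cytosolic RNA, limma-voom 8 in hnRNPC cytosolic RNA, scaling on the tested genes alone 16 in ADAR total RNA, and GFP cells as control 0 for ADAR cells on day 5. The cause was not tested. Introns with a lower level limit gave 8 and 36 calls in hnRNPC cells on days 4 and 5 and 79 in double cells, and with the replicate block 3, 20 and 44. In study 2, with 2 libraries per group, same-numbered libraries of a gRNA group and CTRL had correlations of deviations from -0.14 to 0.45, and whether the numbers pair them was not settled. Crossing the numbers, chosen after seeing the data, gave 6 calls in hnRNPC total RNA and 20 for cytosol against remainder.

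Leaving out 1 library gave 0 to 2 calls in ADAR and 0 to 1 in GFP cells on day 5, 7 to 18 for CTRL day 4 against day 3, 0 to 4 in double and 5 to 11 in hnRNPC cells on day 3, 2 to 11 with IFN-α, 1 to 2 for the interaction on day 4, and in study 2 it gave 6 to 11 in ADAR cytosolic, 3 to 6 in ADAR total, 1 to 5 in hnRNPC cytosolic and 0 to 5 in hnRNPC total RNA. Of the log2 fold changes of 6 key members, none turned its direction while called, 75 of 1421 called values lost and 82 of 1441 uncalled values gained the call. For genes near 0, such as CH25H, depth sets the limit.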
